A study of Mus musculus with 10 samples.

Results

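The circadian clock output genes examined were the 10 genes *Per1*, *Per2*, *Per3*, *Cry1*, *Cry2*, *Dbp*, *Tef*, *Nr1d1*, *Nr1d2* and *Ciart*. They were taken by gene symbol from the 56691 genes of the expression table, where each symbol matched 1 row. All 10 passed the filter on low counts and were among the 16545 genes tested. In most cells of the body the clock is a feedback loop, in which the protein of *Arntl* (BMAL1) pairs with CLOCK or NPAS2 and switches on genes that carry E-box sequences, the output genes among them. The PER and CRY proteins and the product of *Ciart* then block this pair, and the REV-ERB proteins encoded by *Nr1d1* and *Nr1d2* repress *Arntl*, so that transcripts such as *Dbp* and *Arntl* peak at opposite times of day. Clocks of this kind run in the epithelium and the muscle layers of the colon and are set by feeding as well as by light.

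RNA was sequenced from the colon of 5 DSS mice and 5 ceAF mice, all male C57/BL6 mice obtained at 8 weeks of age. Mice of both groups drank 3% dextran sulfate sodium (DSS), a sulfated polysaccharide that injures the colon epithelium, for 7 days. The ceAF group was then given chick early amniotic fluid (ceAF) by gavage, 15 mL/kg for 10 days. The animals lived under 12 h of light and 12 h of darkness, with lights on at 8 in the morning. The hour at which the colon was taken, the order of dissection, the day on which the DSS group was sampled and any gavage of that group are not given in the sources used here. Time of day and treatment therefore cannot be told apart where they might have differed between groups. Untreated colon was not analysed here, so every value compares ceAF with DSS. The comparison asks how far each clock transcript differed between the groups, and how alike the mice of 1 group were in these transcripts. Library totals lay between 14676471 and 19901549 counts, and the lowest count of any of the 10 genes in any library was 87, for *Ciart*. Levels are given below as CPM, the counts of a gene scaled to a common library total, where libraries were scaled by TMM (a trimmed mean of log ratios between libraries), and fold changes as log2 of ceAF over DSS with the standard error (SE). Mice are named by the group and number of their labels, which say only that they are separate samples, so the p-values measure the spread between these samples.

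No clock output gene passed the test between the groups. Tested with edgeR (quasi-likelihood, Benjamini-Hochberg adjustment over all genes tested), 0 of the 10 had an adjusted p-value under 0.05, against 0 of 16545 genes, or 0%. The adjusted p-values of the 10 ran from 0.689 for *Per2* to 0.998 for *Nr1d1*. At an unadjusted p-value under 0.05, 1 of the 10 was higher in the ceAF group (*Per2*), where 3.26% of all genes tested were, and 0 were lower, where 3.67% of all genes were. DESeq2 called 28 genes of the whole table at an adjusted p-value under 0.05, and none of the 10 was among them. The values of the groups overlapped in all 10 genes, and groups without overlap were found in 0 of them, against 1.24% of all genes tested. The log2 fold change was above 0 in 7 of the 10 and below 0 in 3, with a median of 0.17, beside a median of 0.01 over all genes tested. Since the tissue was sequenced in bulk, fewer cells of a type and less RNA per cell cannot be told apart in any of these values.

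*Dbp* and *Tef* encode transcription factors that bind D-box sequences and carry the rhythm on to genes of metabolism. *Dbp*, an output with a wide daily swing in many tissues, stood at 24.5, 46.6, 41.7, 38.0 and 9.48 CPM in DSS-1 to DSS-5 and 33.0, 39.6, 30.8, 17.2 and 31.8 in ceAF-1 to ceAF-5. DSS-5 was the lowest of all 10 mice and ceAF-4 the next lowest, while DSS-2, DSS-3, ceAF-2 and DSS-4 were the highest, so the range of the ceAF group lay inside that of the DSS group. The means were 32.1 ± 15.05 CPM for DSS and 30.5 ± 8.19 CPM for ceAF (SD, n = 5 each), with a log2 fold change of −0.07 (SE 0.365) and an unadjusted edgeR p-value of 0.845. The sign of that difference rested on single mice, since the log2 fold change of *Dbp* was 0.11 without DSS-2, 0.05 without DSS-3 and 0.09 without ceAF-4, but −0.29 without DSS-5. *Tef* was measured at 115, 145, 173, 132 and 85.0 CPM in DSS-1 to DSS-5 and 209, 129.5, 133, 116 and 143 in ceAF-1 to ceAF-5. Here ceAF-1 was the highest mouse and DSS-5 the lowest, and the other 8 mice of both groups were mixed between them. The log2 fold change of *Tef* was 0.17 (SE 0.204), with an unadjusted edgeR p-value of 0.426, and the log2 value was 0.00528 without ceAF-1, 0.06 without DSS-5 and 0.31 without DSS-3.

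The Per genes encode the PERIOD repressors, and *Per1* and *Per2* also answer to signals from outside the loop such as glucocorticoids and cyclic AMP. *Per2* was measured at 44.0, 45.4, 44.2, 62.5 and 83.8 CPM in DSS-1 to DSS-5 and 60.0, 83.5, 86.8, 74.0 and 92.0 in ceAF-1 to ceAF-5. DSS-1, DSS-2 and DSS-3 lay below all ceAF mice, but DSS-5 reached the level of the ceAF group and ceAF-1 fell below DSS-4, so the groups overlapped. Means were 56.0 ± 17.4 CPM for DSS and 79.3 ± 12.6 CPM for ceAF (SD, n = 5 each), a log2 fold change of 0.50 (SE 0.197). The unadjusted edgeR p-value was 0.0272, the adjusted one 0.689, and the exact two-sided permutation test over all ways to assign the mice to the groups gave 0.0635. The unadjusted p-value of *Per2* rose above 0.05 when any of 5 mice was left out, with 0.0644 without DSS-1, 0.0659 without DSS-2, 0.0663 without DSS-3, 0.0573 without ceAF-3 and 0.0635 without ceAF-5. Without DSS-5 the log2 fold change of *Per2* was 0.71 with an unadjusted p-value of 0.00108 and an edgeR adjusted p-value of 0.304, and the adjusted p-value ranged from 0.0885 to 1.00 over all alternatives tried.

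*Per3*, the family member with the weakest role in keeping the loop running, stood at 43.6, 67.9, 90.3, 63.4 and 40.9 CPM in DSS-1 to DSS-5 and 112, 74.4, 70.1, 71.2 and 92.8 in ceAF-1 to ceAF-5. The 2 lowest mice were DSS-5 and DSS-1 and the 2 highest ceAF-1 and ceAF-5, while DSS-3 lay among the ceAF mice. Its log2 fold change was 0.46 (SE 0.224), with an unadjusted edgeR p-value of 0.0658 and an exact p-value of 0.0873 by permutation (n = 5 each). Without DSS-3 the log2 fold change of *Per3* was 0.65 and the unadjusted p-value 0.00935, and without ceAF-1 they were 0.33 and 0.163. *Per1*, the member with the smallest spread between mice, was counted at 67.5, 56.8, 57.1, 55.3 and 50.0 CPM in DSS-1 to DSS-5 and 68.8, 72.6, 80.9, 49.0 and 56.0 in ceAF-1 to ceAF-5. It was highest in ceAF-3 and ceAF-2 and lowest in ceAF-4, with all DSS mice between these extremes. For *Per1* the log2 fold change was 0.19 (SE 0.142), with an unadjusted edgeR p-value of 0.205, which became 0.0416 without ceAF-4, where the log2 fold change was 0.29.

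*Cry1* and *Cry2* encode the cryptochromes, the main inhibitors of the CLOCK and BMAL1 pair. *Cry1*, whose transcript peaks later than those of the other outputs, was measured at 23.9, 23.6, 21.4, 32.9 and 45.7 CPM in DSS-1 to DSS-5 and 36.2, 26.8, 32.9, 28.2 and 21.1 in ceAF-1 to ceAF-5. It was highest in DSS-5, the mouse that was lowest in *Dbp*, and it was lowest in ceAF-5. *Cry2* was measured at 32.9, 48.9, 45.6, 42.9 and 33.1 CPM in DSS-1 to DSS-5 and 66.8, 38.9, 45.6, 39.0 and 34.4 in ceAF-1 to ceAF-5. In this gene ceAF-1 was the highest by a wide margin and DSS-1 and DSS-5 were the lowest. The log2 fold changes were −0.02 for *Cry1* (SE 0.222) and 0.14 for *Cry2* (SE 0.19), with unadjusted edgeR p-values of 0.918 and 0.468. Both signs depended on single mice, since *Cry1* was at 0.21 without DSS-5 and, without DSS-4, ceAF-2 or ceAF-5, at 0.02, 0.02 and 0.07, and *Cry2* was at −0.04 without ceAF-1. *Ciart*, which encodes a further repressor of CLOCK and BMAL1, was measured at 13.6, 16.1, 14.6, 20.4 and 5.22 CPM in DSS-1 to DSS-5 and 15.8, 21.3, 17.8, 7.40 and 16.6 in ceAF-1 to ceAF-5. As with *Dbp*, DSS-5 and ceAF-4 were the 2 lowest mice, while ceAF-2 and DSS-4 were the highest. The log2 fold change of *Ciart* was 0.17 (SE 0.343), with an unadjusted edgeR p-value of 0.621, and it was −0.02 without DSS-5.

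*Nr1d1* and *Nr1d2* encode REV-ERBα and REV-ERBβ, the nuclear receptors that bind heme and repress *Arntl*. *Nr1d1* was measured at 68.0, 89.3, 80.2, 88.5 and 36.0 CPM in DSS-1 to DSS-5 and 56.5, 101, 80.7, 44.0 and 77.7 in ceAF-1 to ceAF-5. DSS-5, ceAF-4 and ceAF-1 were the 3 lowest mice and ceAF-2 the highest, and the group means were nearly equal, at 72.4 ± 22.1 CPM for DSS and 72.0 ± 22.2 CPM for ceAF (SD, n = 5 each). The log2 fold change was −0.01 (SE 0.27), with an unadjusted edgeR p-value of 0.976, and it ran from −0.17 to 0.14 as single mice were left out, above 0 without DSS-2, DSS-3, DSS-4, ceAF-1 or ceAF-4. *Nr1d2* stood at 102, 146, 178, 125 and 87.2 CPM in DSS-1 to DSS-5 and 216, 137, 156, 118 and 142 in ceAF-1 to ceAF-5. Its order of mice was that of *Tef* at both ends, with ceAF-1 and DSS-3 highest and DSS-5 lowest. In *Nr1d2* the log2 fold change was 0.27 (SE 0.211), with an unadjusted edgeR p-value of 0.226, and the log2 value was 0.12 without ceAF-1, 0.17 without DSS-5 and 0.43 without DSS-3 (unadjusted p-value 0.057).

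**Figure D1:**
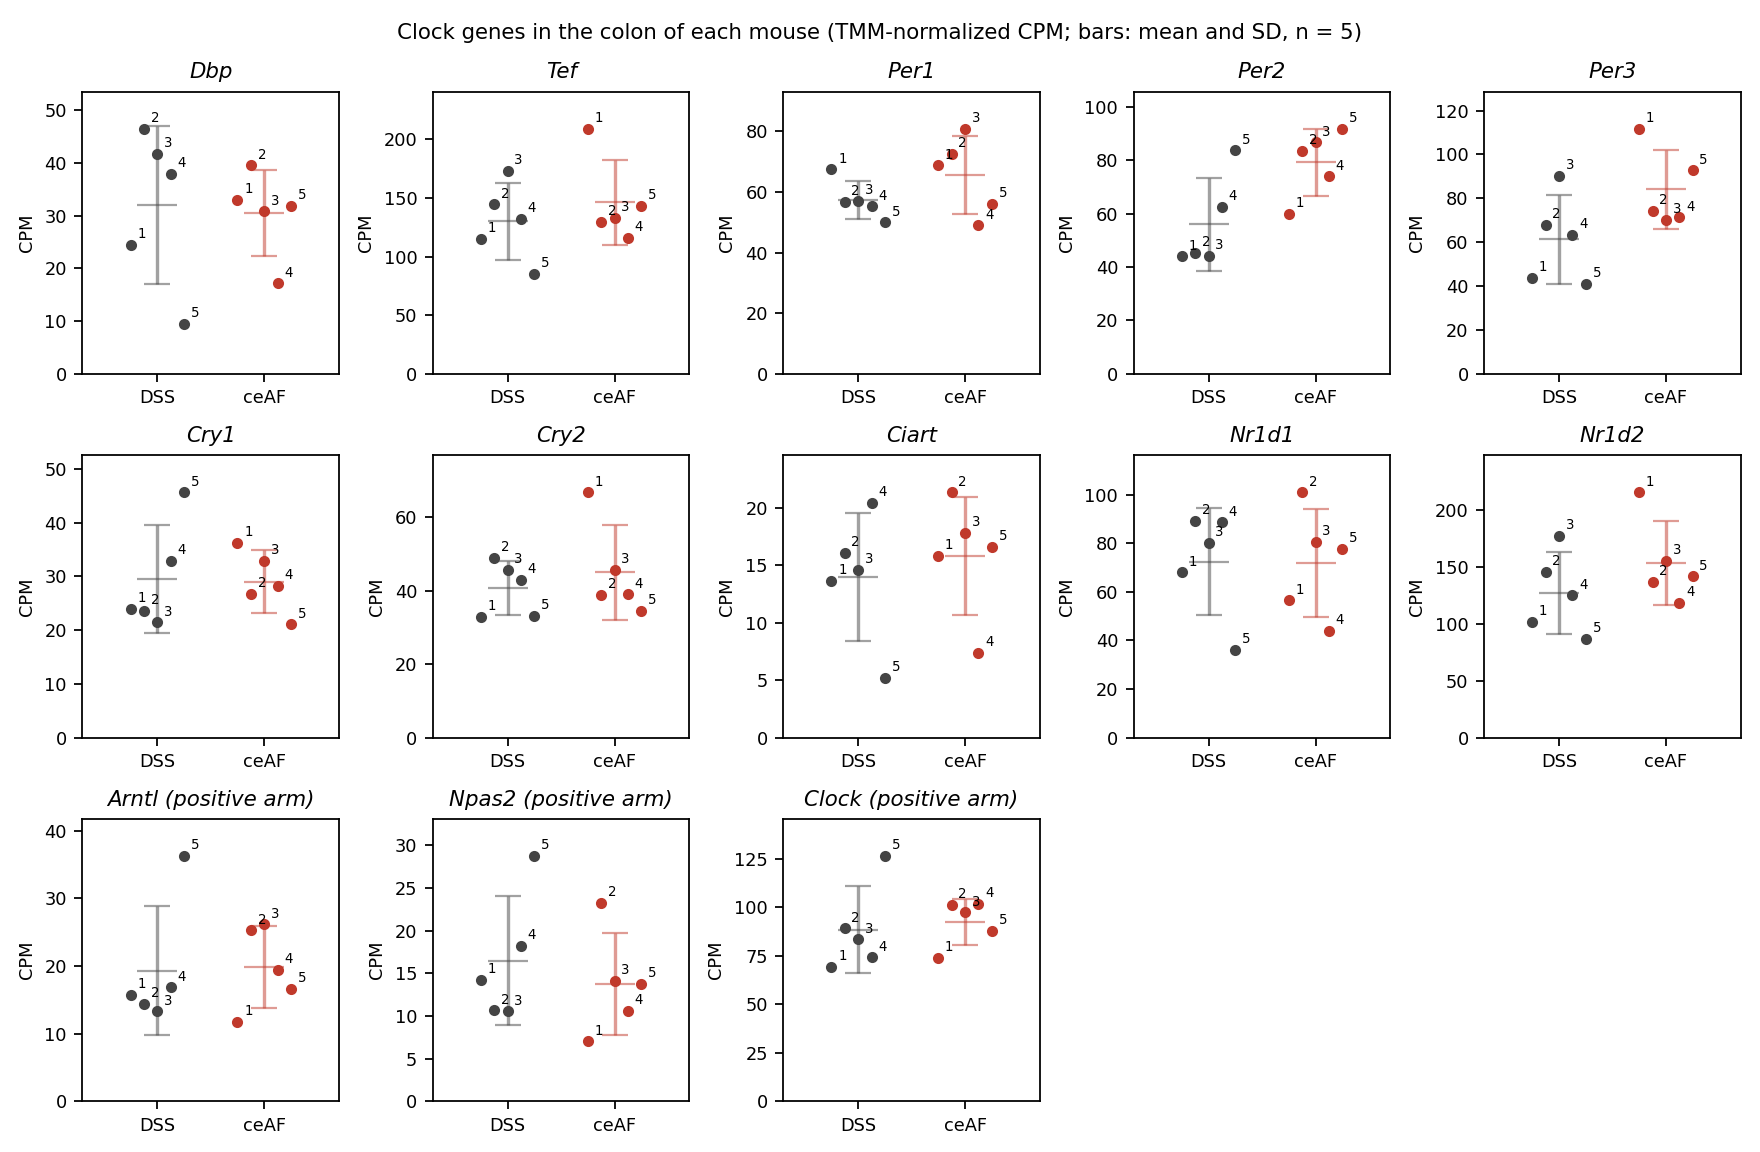
TMM-normalized CPM (vertical axes, each from 0) of the 10 clock output genes and of the positive arm genes *Arntl*, *Npas2* and *Clock* in each mouse, with points numbered by mouse and bars for the mean and SD of 5 mice. The groups overlap in every panel, and DSS-5 is the lowest mouse in 6 of the 10 output genes and the highest in all 3 positive arm genes.

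The positive arm of the loop was read from *Arntl*, *Npas2* and *Clock*, whose proteins drive the output genes. *Arntl* was measured at 15.7, 14.4, 13.3, 16.8 and 36.3 CPM in DSS-1 to DSS-5 and 11.8, 25.3, 26.2, 19.4 and 16.6 in ceAF-1 to ceAF-5. DSS-5 was far above the other DSS mice, ceAF-3 and ceAF-2 came next, and ceAF-1 was the lowest. *Npas2*, which can take the place of CLOCK, stood at 14.2, 10.6, 10.5, 18.2 and 28.8 CPM in DSS-1 to DSS-5 and 7.02, 23.2, 14.1, 10.6 and 13.7 in ceAF-1 to ceAF-5, with the same highest and lowest mice as *Arntl*. *Clock*, whose transcript swings little over the day in most tissues, stood at 69.4, 89.1, 83.4, 74.1 and 126 CPM in DSS-1 to DSS-5 and 73.9, 101, 97.3, 102 and 87.8 in ceAF-1 to ceAF-5, again with DSS-5 highest. Group differences were 0.04 for *Arntl* (SE 0.307), −0.26 for *Npas2* (SE 0.348) and 0.06 for *Clock* (SE 0.165) on the log2 scale. None of the 3 genes had an unadjusted edgeR p-value under 0.05, the values being 0.894, 0.473 and 0.707.

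Some mice were often at the ends of the range. DSS-5 was the lowest of all mice in 6 of the 10 output genes (*Dbp*, *Tef*, *Per3*, *Nr1d1*, *Nr1d2* and *Ciart*), the highest in *Cry1*, and the highest in all 3 positive arm genes. ceAF-1 was the highest in 4 output genes (*Per3*, *Cry2*, *Tef* and *Nr1d2*) and the lowest in *Arntl* and *Npas2*. A value for each mouse was formed as the mean log2 CPM of 6 outputs (*Dbp*, *Tef*, *Nr1d1*, *Nr1d2*, *Ciart* and *Per3*) minus that of the 3 positive arm genes. Transcripts such as *Dbp* and *Arntl* peak at opposite times of day, while that of *Clock* swings little in most tissues. The value is read only as a difference between mice, and its zero has no meaning. What such a difference stands for was not tested. Since the 6 are the outputs in which DSS-5 was lowest and the 3 the genes in which it was highest, its place at the low end follows from the genes used. This value was 0.93, 1.50, 1.66, 1.19 and −0.83 in DSS-1 to DSS-5 and 1.99, 0.83, 0.94, 0.61 and 1.26 in ceAF-1 to ceAF-5. It spanned 2.82 log2 units between DSS-5 and ceAF-1, the 2 ends, and the other 8 mice lay between 0.61 and 1.66. The mean was 0.89 ± 1.00 for DSS and 1.13 ± 0.54 for ceAF (SD, n = 5 each), a difference of 0.24 on the log2 scale that was smaller than the SD of either group. Without DSS-5 the difference was −0.19, so its sign was set by that mouse, and without ceAF-1 it was 0.02. With all 10 outputs in place of the 6, an alternative added after the data were seen, the value was 0.82, 1.22, 1.31, 1.00 and −0.51 in DSS-1 to DSS-5 and 1.84, 0.64, 0.88, 0.64 and 1.03 in ceAF-1 to ceAF-5, a difference of 0.24, and DSS-5 and ceAF-1 were again the lowest and highest mice.

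Per unit of transcript length the same mouse stood out. The ratio of the FPKM values (counts per kilobase of exon, scaled to the library total) of *Dbp* and *Arntl* was 3.92, 8.15, 7.91, 5.67 and 0.656 in DSS-1 to DSS-5 and 7.09, 3.94, 2.96, 2.22 and 4.81 in ceAF-1 to ceAF-5. *Dbp* was above *Arntl* in 9 of the 10 mice on this scale, and DSS-5 was the exception, with 3.21 FPKM of *Dbp* and 4.89 FPKM of *Arntl*. In the other 9 mice the ratio lay between 2.22 in ceAF-4 and 8.15 in DSS-2.

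Across the 10 mice, 32 of the 45 pairs among the output genes had a positive Pearson correlation of log2 CPM, while 24 of the 30 pairs of an output gene with a positive arm gene had a negative one. After Benjamini-Hochberg adjustment over these 75 relations, which were computed after the values had been seen, 8 of the 45 and 1 of the 30 had an adjusted permutation p-value under 0.05 by Pearson's r. By Spearman's rho 1 of the 45, *Tef* with *Nr1d2*, and 0 of the 30 did. How often pairs of other genes reach such values in these 10 libraries was not computed. The counts of pairs therefore cannot be read as particular to the clock genes. *Dbp*, *Nr1d1* and *Ciart* varied together, with r of 0.91 between *Dbp* and *Nr1d1*, 0.92 between *Dbp* and *Ciart* and 0.93 between *Nr1d1* and *Ciart*. *Tef*, *Nr1d2*, *Per3* and *Cry2* also varied together, with r from 0.68 for *Per3* and *Cry2* to 0.96 for *Tef* and *Nr1d2*. Between these 2 sets of genes the median r was lower, 0.50 with a range from 0.18 to 0.75, which overlapped that of the second set. Both sets were picked after the values were seen, and the ranges of r are descriptions without a test. When DSS-5 was left out, r within the first set was 0.79 to 0.87 and within the second 0.62 to 0.95, while between the sets it was −0.12 to 0.48. Without ceAF-1 the second set ran from 0.50 to 0.94 and the pairs between the sets from 0.44 to 0.89, and without both mice from 0.32 to 0.89 and from 0.08 to 0.71, so the second set was clear of the pairs between the sets only when DSS-5 alone was left out. *Per2* and *Cry1* did not follow either set: with *Dbp*, r was −0.38 for *Per2* and −0.60 for *Cry1*, and with *Arntl* it was 0.69 for *Per2* and 0.54 for *Cry1*.

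The tightest pair was *Tef* and *Nr1d2*, with Pearson's r of 0.96 (permutation p = 4e-05, adjusted p = 0.003) and Spearman's rho of 0.95 (permutation p = 0.00017, adjusted p = 0.0127) over 10 mice. Without the 2 mice farthest from the median of *Tef*, r was 0.89 (exact permutation p = 0.00481). *Dbp* and *Nr1d1* had r of 0.91 (permutation p = 0.00075, adjusted p = 0.0141) and rho of 0.79 (permutation p = 0.00876, adjusted p = 0.131). Without the 2 mice farthest from the median of *Dbp*, r was 0.58 (exact permutation p = 0.128). *Dbp* and *Ciart* had r of 0.92 (permutation p = 0.00198, adjusted p = 0.0212) and rho of 0.58 (permutation p = 0.0877, adjusted p = 0.346), and without the same 2 mice r was 0.36 (exact permutation p = 0.378). Leaving out the mice farthest out in a gene narrows its range, which can by itself lower r. *Tef* and *Arntl* ran in opposite directions, with r of −0.81 (permutation p = 0.00454, adjusted p = 0.0421) and rho of −0.73 (permutation p = 0.0208, adjusted p = 0.173). Without the 2 mice farthest from the median of *Tef* this r was −0.45 (exact permutation p = 0.266).

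**Figure D2:**
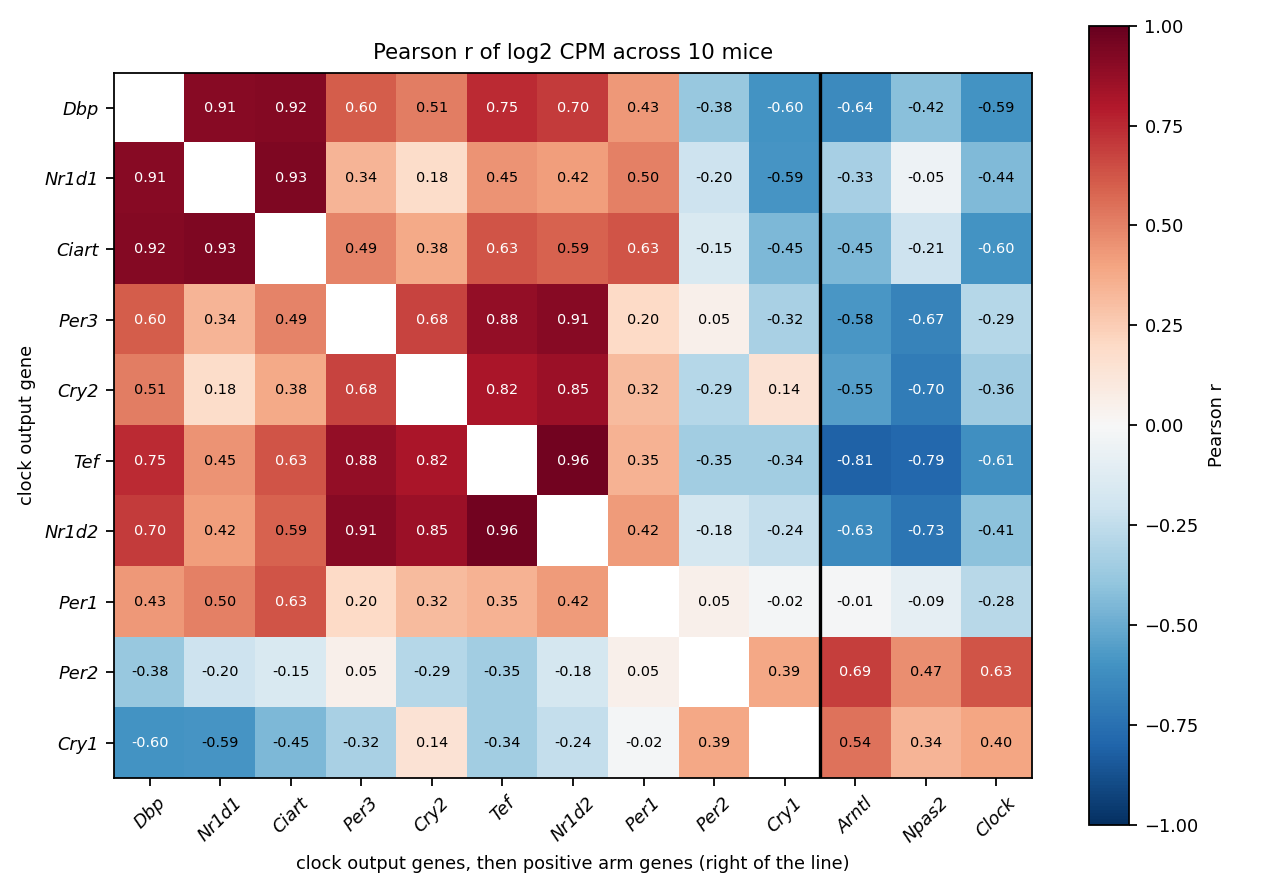
Pearson r of log2 CPM over 10 mice for each pair of clock output genes, and to the right of the line for each output gene with a positive arm gene, from −1 (blue) to 1 (red). *Dbp*, *Nr1d1* and *Ciart* form a square of 0.91 to 0.93, *Tef*, *Nr1d2*, *Per3* and *Cry2* one of 0.68 to 0.96, and *Per2* and *Cry1* are the output genes with a positive r with all 3 positive arm genes.

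The opposite course of *Dbp* and *Arntl* was weaker. Over 10 mice r was −0.64 (permutation p = 0.046) and rho −0.55 (permutation p = 0.105), with adjusted p-values of 0.108 and 0.21 over the 12 relations of *Dbp* with the other outputs and the positive arm. Without the 2 mice farthest from the median of *Dbp*, r was −0.11 (exact permutation p = 0.787), and without DSS-5 alone it was −0.21 (exact permutation p = 0.606). With 9 mice the exact permutation p-value was also above 0.05 without DSS-2 (0.0829), DSS-3 (0.0854), DSS-4 (0.0637) or ceAF-5 (0.0641), where r lay between −0.63 and −0.60. Of the 12 relations of *Dbp*, those with *Nr1d1* and *Ciart* had an adjusted permutation p-value under 0.05 for r, and none had one for rho. Over all 30 pairs of the 10 outputs with the 3 positive arm genes, r had a median of −0.41 and was negative in 24, and without DSS-5 it was negative in 15, with a median of −0.01. In the 18 pairs of the 6 outputs above, which leave out *Per1*, *Per2*, *Cry1* and *Cry2*, r was negative in 18, with a median of −0.59, and without DSS-5 in 10, with a median of −0.15. Without both DSS-5 and ceAF-1 it was negative in 11 of the 30 and 9 of the 18.

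**Figure D3:**
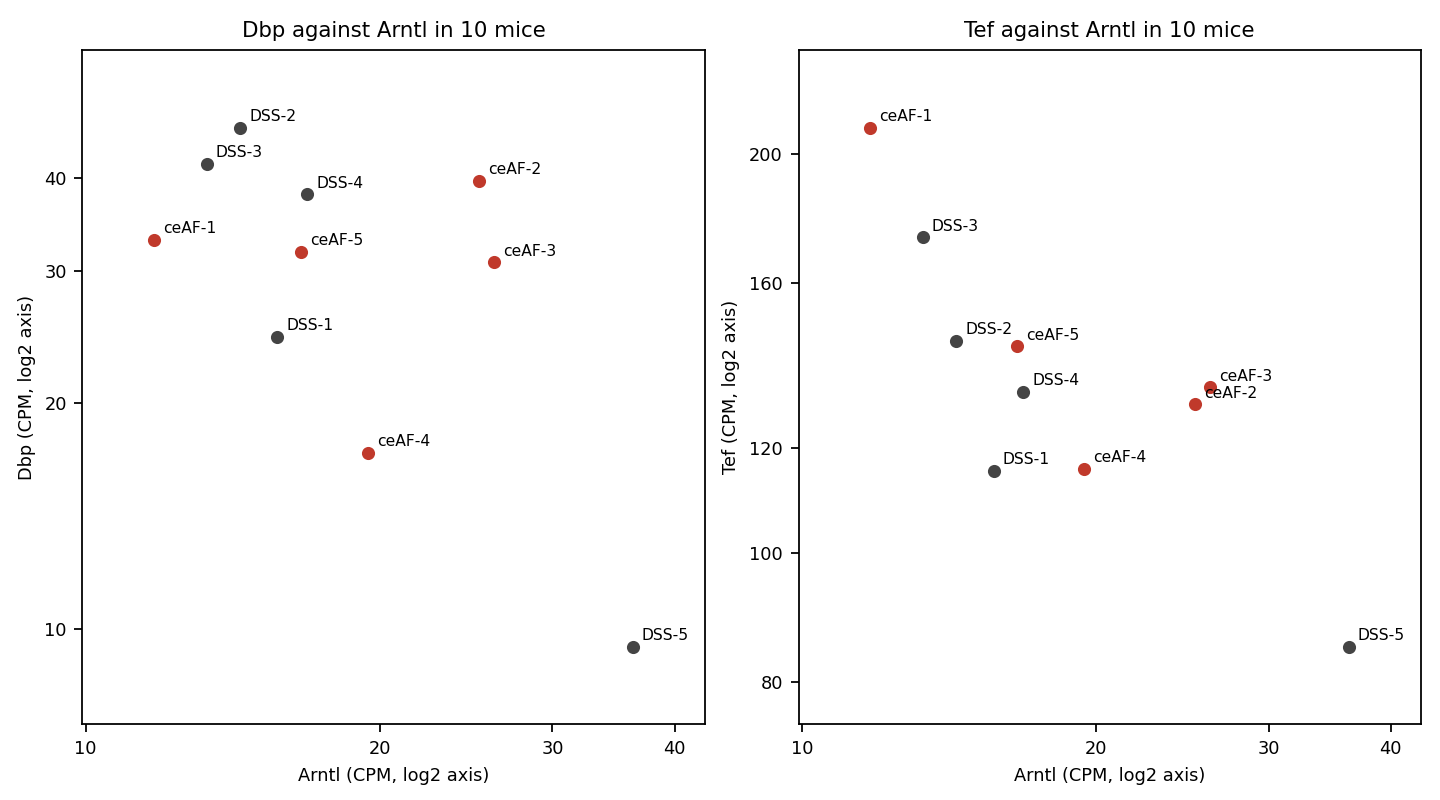
*Dbp* (left) and *Tef* (right) against *Arntl* in 10 mice, as TMM-normalized CPM on log2 axes, with black points for the DSS group and red points for the ceAF group. DSS-5 lies alone at the lower right of both panels, where *Arntl* is 36.3 CPM, and ceAF-1 at the upper left of the *Tef* panel, where *Arntl* is 11.8 CPM.

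Compared per length, as mean FPKM over the 10 mice, the order of the output genes was *Nr1d2* (25.8 ± 5.99, SD), *Nr1d1* (23.4 ± 6.76), *Tef* (17.4 ± 3.75), *Per2* (11.6 ± 3.38), *Per1* (10.9 ± 1.67), *Dbp* (10.4 ± 3.78), *Cry1* (8.70 ± 2.16), *Per3* (7.52 ± 2.12), *Cry2* (6.71 ± 1.25) and *Ciart* (6.54 ± 2.18). No neighbours in this order of FPKM values were held apart in all 10 mice. *Tef* was above *Per2* in 9 of 10 mice, and *Nr1d1* above *Tef* and *Dbp* above *Cry1* in 8. *Nr1d2* was above *Nr1d1* in 6 mice, *Per2* above *Per1* in 6, *Per1* above *Dbp* in 5, *Cry1* above *Per3* in 7, *Per3* above *Cry2* in 6 and *Cry2* above *Ciart* in 5, so these neighbours did not differ beyond their spread.

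The spread between mice of 1 group was taken as the pooled SD of log2 CPM. It was widest for *Dbp* (0.737) and *Ciart* (0.673), which lay at percentiles 86.9 and 83.7 of all genes tested, and *Nr1d1* followed with 0.51 at percentile 72.1. DSS-5 was the lowest mouse in each of these genes and widened their SD, and *Dbp* was wider than *Ciart* only with DSS-5 included. Without DSS-5 the median SD of the 10 genes was 0.33, and the median over all genes tested was not computed without that mouse. *Per1* had the narrowest, 0.235, at percentile 32.2. With all 10 mice the median of the 10 genes was 0.38, beside 0.33 over all genes tested, and 8 of the 10 were above the latter. In folds, the highest mouse was 4.91 times the lowest for *Dbp*, 4.09 times for *Ciart*, 2.81 times for *Nr1d1* and 1.65 times for *Per1*. The lowest mouse was DSS-5 for *Dbp*, *Ciart* and *Nr1d1*, at 9.48, 5.22 and 36.0 CPM. The next lowest, ceAF-4, stood at 17.2, 7.40 and 44.0 CPM. Without DSS-5 these folds are smaller, and that of *Dbp* falls below that of *Ciart*.

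Among 15 further clock regulators, 13 were tested, *Rorb* and *Fbxl21* being too low, and 0 had an unadjusted edgeR p-value under 0.05 in either direction. *Nfil3*, which encodes a repressor that competes with DBP and TEF for D-box sequences, was measured at 18.1, 4.40, 8.56, 4.23 and 22.3 CPM in DSS-1 to DSS-5 and 11.4, 3.25, 3.13, 6.68 and 1.37 in ceAF-1 to ceAF-5. DSS-5 was its highest mouse and DSS-1 the next, and both were among the 3 lowest in *Dbp* and *Tef*. Between groups the log2 fold change of *Nfil3* was −1.16 (SE 0.614), with an unadjusted edgeR p-value of 0.0848. *Bhlhe40*, whose product (DEC1) also represses from E-box sequences, was the 1 gene among the 13 in which the groups did not overlap, where 1.24% of all genes tested were without overlap, at 257, 211, 213, 210.3 and 219.6 CPM in DSS-1 to DSS-5 and 199, 204, 208, 184 and 121 in ceAF-1 to ceAF-5. All DSS mice were above all ceAF mice, with a log2 fold change of −0.28 (SE 0.146) and an unadjusted edgeR p-value of 0.0831. *Csnk1d*, whose kinase acts on PER proteins, varied 1.18-fold between the highest and lowest mouse. Of 4 enzymes under clock control, *Wee1*, *Usp2*, *Noct* and *Nampt*, 0 had an unadjusted edgeR p-value under 0.05. *Usp2*, a deubiquitinase gene, was measured at 16.3, 55.2, 30.2, 44.1 and 38.9 CPM in DSS-1 to DSS-5 and 45.5, 73.2, 55.2, 9.31 and 39.5 in ceAF-1 to ceAF-5. Its lowest mice were ceAF-4 and DSS-1 and its highest ceAF-2, while DSS-5 lay in the middle.

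Beside the clock, 10 glucocorticoid-induced and 8 immediate early genes were listed, since *Per1* and *Per2* also respond to signals of these kinds, and the part of such signals in the clock values was not tested. Of the 10 glucocorticoid-induced genes, 1 (*Dusp1*) was lower in the ceAF group at an unadjusted edgeR p-value under 0.05 and 0 were higher, where 3.67% and 3.26% of all genes tested were, and the median log2 fold change was −0.05. *Dusp1* was measured at 177, 46.2, 53.1, 47.2 and 36.5 CPM in DSS-1 to DSS-5 and 23.0, 51.5, 44.6, 31.7 and 20.3 in ceAF-1 to ceAF-5. DSS-1 was far above all other mice, which overlapped between the groups, and the exact permutation p-value was 0.0714 (n = 5 each). *Fkbp5*, a standard readout of the glucocorticoid receptor, was measured at 163, 189, 141, 177 and 339 CPM in DSS-1 to DSS-5 and 385, 143, 184, 105 and 148 in ceAF-1 to ceAF-5. It was highest in ceAF-1 and lowest in ceAF-4, with a log2 fold change of −0.06 (SE 0.35). Of the 8 immediate early genes, 3 (*Egr1*, *Junb* and *Ier2*) were lower in the ceAF group at an unadjusted edgeR p-value under 0.05 and 0 were higher, beside the same 3.67% and 3.26% of all genes, with adjusted p-values of 0.656 for each. The median log2 fold change of these 8 genes was −0.31. Exact permutation gave p-values of 0.0635 for *Egr1*, 0.0317 for *Junb* and 0.0159 for *Ier2*.

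Markers of the tissue and of other cell types were set beside the clock genes. The epithelial markers of the labelled tissue, colon, were abundant in all libraries, led by *Krt8*, and their summed level was 10021, 11570, 10707, 13026 and 7704 CPM in DSS-1 to DSS-5 and 11472, 12038, 12241, 10061 and 10100 in ceAF-1 to ceAF-5. DSS-5, the mouse lowest in most outputs, was also the lowest in this sum. Over the 10 mice the mean centred log2 level of the epithelial markers had Pearson's r of 0.75 and Spearman's rho of 0.64 with the output minus positive arm value, given without a test. For the single gene *Dbp*, r with the epithelial markers was 0.76 (permutation p = 0.0178) and rho 0.64 (permutation p = 0.0552), with adjusted p-values of 0.209 and 0.441 over the 30 relations of *Dbp*, *Arntl* and *Tef* with 10 marker lists. Without the 2 mice farthest from the median of *Dbp* this r was 0.34 (exact permutation p = 0.408). *Tef* ran against the fibroblast markers, with r of −0.69 (permutation p = 0.0390, adjusted 0.262) and rho of −0.73 (permutation p = 0.0201, adjusted 0.441), and without the 2 mice farthest from the median of *Tef* this r was −0.76 (exact permutation p = 0.0279). In all, 5 of the 30 relations had an unadjusted permutation p-value under 0.05 for r, and 2 of these kept one without the 2 mice farthest from the median of the clock gene, *Tef* with fibroblast markers and *Arntl* with the adipocyte gene *Cidec* (r −0.71 over 10 mice, permutation p = 0.0209, and −0.74 without the 2, exact permutation p = 0.0377). None of the 30 relations had an adjusted p-value under 0.05.

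The fibroblast markers, led by *Col3a1*, summed to 1024, 494, 489, 458 and 479 CPM in DSS-1 to DSS-5 and 156, 643, 616, 791 and 431 in ceAF-1 to ceAF-5, and ceAF-1, the mouse highest in *Tef* and *Nr1d2*, was the lowest. The 4 endothelial markers, led by *Pecam1*, were likewise lowest in ceAF-1, at 96.0, 56.3, 55.6, 65.7 and 52.8 CPM in DSS-1 to DSS-5 and 24.2, 42.2, 53.7, 97.3 and 42.9 in ceAF-1 to ceAF-5. With the output minus positive arm value, r was −0.46 for fibroblast, −0.36 for endothelial, −0.51 for smooth muscle and 0.29 for enteric neuron and glia markers, and rho was −0.75, −0.27, −0.53 and 0.41. By rho the fibroblast markers had the strongest relation of the 10 lists. The smooth muscle markers, led by *Myh11*, summed to 2368, 2105, 1487, 1278 and 2709 CPM in DSS-1 to DSS-5 and 1207, 2875, 1150, 1407 and 2282 in ceAF-1 to ceAF-5. Enteric neuron and glia markers, led by *Uchl1*, summed to 47.3, 17.1, 31.8, 17.1 and 21.2 CPM in DSS-1 to DSS-5 and 37.4, 24.4, 15.6, 13.2 and 25.9 in ceAF-1 to ceAF-5. Of the adipocyte markers *Adipoq* and *Plin1* had 0 counts in at least 1 library and were too low to test, so that this list rested on *Cidec*, a gene that is also expressed outside fat cells. *Cidec* was measured at 15.8, 14.8, 13.9, 15.9 and 5.16 CPM in DSS-1 to DSS-5 and 28.1, 9.76, 16.4, 8.29 and 8.41 in ceAF-1 to ceAF-5, and with the output minus positive arm value its r was 0.81 and its rho 0.60. These relations show which markers varied with the clock values over the mice, and the part of cell composition in the clock values was not tested.

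Immune markers differed between the groups at the unadjusted threshold, with edgeR adjusted p-values of 0.656 or more. All 6 T-cell markers were lower in the ceAF group at an unadjusted edgeR p-value under 0.05, as were 3.67% of all genes tested, and their median log2 fold change was −1.32. The exact permutation p-value was 0.0873 for *Cd4*, and 0.0397 (*Cd3e*) or less for the other T-cell markers. The sum of the T-cell markers, led by *Cd8a*, was 90.5, 114, 107, 115 and 42.9 CPM in DSS-1 to DSS-5 and 40.9, 48.5, 42.6, 24.5 and 29.1 in ceAF-1 to ceAF-5. DSS-5 was the lowest DSS mouse here and lay within the ceAF range. All 4 neutrophil markers, led by *S100a9*, were also lower at an unadjusted edgeR p-value under 0.05. By exact permutation the p-value was 0.0397 for *S100a9*, but 0.111 for *S100a8*, 0.151 for *Csf3r* and 0.159 for *Cxcr2*. The sum of the neutrophil markers was 1256, 12.8, 150.0, 15.5 and 65.8 CPM in DSS-1 to DSS-5 and 1.60, 11.9, 11.8, 33.5 and 18.3 in ceAF-1 to ceAF-5. That sum was set by DSS-1, a mouse that lay among the lower mice for *Dbp*, *Tef* and *Nr1d2*. Of the 4 macrophage markers, led by *C1qb*, 2 were lower at that edgeR threshold (*C1qa*, exact permutation p = 0.0794, and *Adgre1*, exact permutation p = 0.0476). The sum of the macrophage markers was 129.8, 96.1, 98.8, 103 and 64.8 CPM in DSS-1 to DSS-5 and 29.1, 79.5, 93.6, 60.9 and 75.3 in ceAF-1 to ceAF-5. None of the 4 B-cell markers, led by *Cd79a*, passed that edgeR threshold, and their sum was 167, 29.3, 23.6, 27.3 and 28.6 CPM in DSS-1 to DSS-5 and 6.71, 30.4, 56.6, 9.78 and 83.3 in ceAF-1 to ceAF-5. The r of the output minus positive arm value was 0.32 with T-cell, −0.26 with neutrophil, −0.14 with macrophage and −0.16 with B-cell markers, and rho was 0.27, −0.37, 0.16 and −0.25, so that the sign for macrophage markers differed between the measures. None of the smooth muscle, fibroblast, endothelial, enteric neuron and glia, epithelial and adipocyte markers tested passed an unadjusted edgeR p-value of 0.05 between the groups.

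Libraries also differed apart from the groups. Mitochondrial transcripts took 9.66% of the counts in ceAF-1 and 9.74% in ceAF-5, and between 4.53% and 7.24% in the other 8 mice. ceAF-1 stood apart from all other libraries on the first principal component of the genes tested, and on the second DSS-1 and DSS-5 were at opposite ends, DSS-1 the farther out. Without ceAF-1 and DSS-5, a choice made after the data were seen, the log2 fold change of *Per2* was 0.79 (unadjusted edgeR p-value 0.00018, adjusted 0.0885), and those of *Dbp*, *Tef*, *Per3* and *Nr1d2* were −0.33, −0.10, 0.23 and 0.02. The median of the 10 log2 fold changes was then −0.00.

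The genes most like the clock outputs were sought among the other genes tested, by Pearson's r over the 10 mice with the mean centred log2 CPM of the 10 members. That mean was −0.26, 0.08, 0.10, 0.11 and −0.56 in DSS-1 to DSS-5 and 0.32, 0.21, 0.20, −0.29 and 0.08 in ceAF-1 to ceAF-5. DSS-5, ceAF-4 and DSS-1 were the lowest mice in it and ceAF-1 the highest. The 10 most alike genes were *Inpp5j* (r = 0.98), *Eppk1* (0.95), *Gm35028* (0.94), *Pla2g3* (0.94), *Far2* (0.94), *Anxa7* (0.93), *Cnksr1* (0.93), *B230307C23Rik* (0.93), *Atp2b1* (0.93) and *Bnip1* (0.93). *Inpp5j* was measured at 87.6, 116, 128, 129 and 65.5 CPM in DSS-1 to DSS-5 and 169.7, 150.2, 152, 80.3 and 109 in ceAF-1 to ceAF-5, lowest in DSS-5 and highest in ceAF-1. The 5 most opposite genes were *Lrrc58* (r = −0.97), *Zfp62* (−0.96), *Ddit4* (−0.96), *Adam9* (−0.94) and *Klhl2* (−0.94). *Ddit4* was measured at 69.3, 39.1, 43.6, 36.8 and 74.7 CPM in DSS-1 to DSS-5 and 27.5, 38.5, 33.0, 69.7 and 40.4 in ceAF-1 to ceAF-5, so that DSS-5, ceAF-4 and DSS-1 were its 3 highest mice. These genes were the extremes of the whole table, and their r carries no p-value. Among the listed genes, the epithelial markers *Vil1* (r = 0.88), *Krt8* (0.84) and *Krt20* (0.81) and the enzyme gene *Nampt* (0.73) were also close to the mean of the clock outputs, but the other 3 epithelial markers were less so, *Epcam* (0.57), *Cdx2* (0.38) and *Cdh1* (0.19). The most opposite of the listed genes were *S100a8* (−0.72), *Cdh5* (−0.68), *Cnn1* (−0.63) and *Vwf* (−0.62). Among clock genes *Nfil3* (−0.59), *Arntl* and *Arntl2* (both −0.49), *Clock* (−0.46) and *Npas2* (−0.44) ran against the mean. In that order, their r lay at percentiles 6.9, 11.9, 11.9, 13.8 and 15.3 of 16535 genes, so many other genes were as opposite.

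The 10 genes lay on 9 chromosomes in the expression table, whose genome build is not given in the sources used here. *Per1* (ENSMUSG00000020893, chr11:68986043-69000786) and *Nr1d1* (ENSMUSG00000020889, chr11:98658758-98666159) shared chromosome 11. *Dbp* lay at chr7:45354512-45359627 (ENSMUSG00000059824), *Tef* at chr15:81686622-81711064 (ENSMUSG00000022389), *Per2* at chr1:91343704-91387046 (ENSMUSG00000055866), *Per3* at chr4:151088109-151129122 (ENSMUSG00000028957) and *Ciart* at chr3:95785815-95789563 (ENSMUSG00000038550). *Cry1* lay at chr10:84967564-85020928 (ENSMUSG00000020038), *Cry2* at chr2:92233991-92264388 (ENSMUSG00000068742) and *Nr1d2* at chr14:4230569-4265642 (ENSMUSG00000021775). In 6 of the 10 the gene overlapped another gene of the table, and since no source used here says that strand was kept in counting, reads in the shared stretch cannot be assigned with certainty. The 3′ end of *Dbp* overlapped *Sphk2* by 737 bases on the other strand, and *Nr1d1* overlapped *Thra* by 1075 bases on the other strand. *Ciart* lay wholly within the stretch shared with *C920021L13Rik* (3749 bases, other strand), *Cry2* shared 23417 bases with *D930015M05Rik* (other strand), *Per3* lay within *Camta1* (41014 bases, same strand), and *Tef* shared 193 bases with *Gm17597* (other strand). Over the mice, r of the member with its neighbour was 0.77 for *Dbp* and *Sphk2*, 0.26 for *Nr1d1* and *Thra*, 0.52 for *Ciart* and *C920021L13Rik*, −0.14 for *Cry2* and *D930015M05Rik* and −0.02 for *Per3* and *Camta1*. *Gm17597* was too low to test. *Per1*, *Per2*, *Cry1* and *Nr1d2* overlapped no other gene.

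Promoter sequences were read from RefSeq (GRCm38.p6), as windows from 250 bases before to 50 bases after a transcription start. Positions of these windows are in that build and differ from the positions of the expression table given above, so the coordinates of a gene and its window cannot be compared. Of the 10 genes, 9 matched, with 11 windows, and *Per2* did not match. The E-box CACGTG, the letters bound by CLOCK and BMAL1, was in 5 windows of 4 genes (*Per1*, *Cry1*, *Tef* and *Ciart*), where 7.15% of 32817 windows of the genome held it. Its variant CACGTT was in 1 window each of *Cry1*, *Cry2* and *Nr1d1* (4.69% of all windows), and the D-box TTATGNAA in 1 window each of *Per1* and *Per3* (3.39%). The letters TAGGTCA, the core of the element bound by ROR and REV-ERB proteins, were in no window of the 9 genes (2.61% of all windows) and in 1 of 2 windows of *Arntl*. Both strands were searched, and a match of letters is a description of the window, not a measured binding site. No match was found in the windows of *Dbp* and *Nr1d2*. *Ciart* held the E-box 3 times, at 116, 58 and 44 bases before the start, which 29 of all windows (0.0884%) matched or exceeded.

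The windows below are some of those that hold a match, and show the matched letters in capitals, in the direction of transcription. *Dbp* and *Nr1d2*, which varied with some of these genes over the mice, are not shown, since their windows hold no match. Whether the letters bear on how the genes varied was not tested. *Ciart* (chr3:95882179-95882478, minus strand) has 3 E-boxes, *Nr1d1* (chr11:98775328-98775627, minus strand) the E-box variant, *Tef* (chr15:81802423-81802722, plus strand) an E-box, *Per3* (chr4:151044616-151044915, minus strand) 2 D-boxes, and *Arntl* (chr7:113207261-113207560, plus strand) the TAGGTCA letters.
*Ciart*: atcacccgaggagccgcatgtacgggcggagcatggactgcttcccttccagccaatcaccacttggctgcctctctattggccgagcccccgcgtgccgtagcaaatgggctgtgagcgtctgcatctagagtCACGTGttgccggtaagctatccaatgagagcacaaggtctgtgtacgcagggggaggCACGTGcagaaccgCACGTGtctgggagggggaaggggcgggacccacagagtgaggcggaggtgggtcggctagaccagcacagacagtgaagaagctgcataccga
*Nr1d1*: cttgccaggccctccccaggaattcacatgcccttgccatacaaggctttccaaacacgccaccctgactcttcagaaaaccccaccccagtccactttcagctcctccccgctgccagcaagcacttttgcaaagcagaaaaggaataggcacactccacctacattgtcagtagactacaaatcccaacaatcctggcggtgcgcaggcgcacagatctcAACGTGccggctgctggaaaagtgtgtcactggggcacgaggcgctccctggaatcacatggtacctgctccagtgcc
*Tef*: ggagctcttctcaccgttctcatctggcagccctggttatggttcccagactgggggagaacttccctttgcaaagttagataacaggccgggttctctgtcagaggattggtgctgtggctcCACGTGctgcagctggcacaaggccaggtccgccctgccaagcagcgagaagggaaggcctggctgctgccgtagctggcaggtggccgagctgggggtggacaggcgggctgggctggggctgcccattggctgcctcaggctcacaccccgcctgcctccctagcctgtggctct
*Per3*: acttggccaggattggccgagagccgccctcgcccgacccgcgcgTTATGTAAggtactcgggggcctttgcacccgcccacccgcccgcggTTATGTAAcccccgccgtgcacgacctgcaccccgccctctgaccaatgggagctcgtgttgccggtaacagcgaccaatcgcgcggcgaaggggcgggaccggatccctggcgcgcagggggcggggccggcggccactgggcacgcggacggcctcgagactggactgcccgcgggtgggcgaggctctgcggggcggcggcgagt
*Arntl*: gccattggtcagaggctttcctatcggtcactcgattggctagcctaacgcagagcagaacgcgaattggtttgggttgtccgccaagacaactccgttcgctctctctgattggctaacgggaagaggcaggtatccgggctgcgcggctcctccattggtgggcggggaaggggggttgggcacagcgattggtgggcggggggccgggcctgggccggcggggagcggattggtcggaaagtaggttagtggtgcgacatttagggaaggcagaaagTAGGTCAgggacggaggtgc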

How the data were processed

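Poly(A) RNA of colon was sequenced from 10 mice, 5 per group. Per the submitters' processing notes, cutadapt 1.9.1 and HISAT2 2.2.1 were used. The counting program, annotation and genome build are not given in the sources used here. The authors deposited counts of reads per gene without normalization, and FPKM values, which were checked to equal the count per kilobase of exonic length and per total counted reads to within 0.005. The per-mouse values were used as deposited. Groups were those of the sample labels.

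Counts were analysed in R 4.3.3 with edgeR 4.0.16, using filterByExpr (minimum count 10), TMM scaling and quasi-likelihood F tests (two-sided), p-values being adjusted after Benjamini and Hochberg over all 16545 genes kept. The fitting code was tested on simulated counts. Log2 CPM used a prior count of 1. DESeq2 1.42.0, limma 3.58.1 on log2(FPKM + 1), upper quartile scaling, other filters and prior counts, the replicate number as a block and the omission of single mice were alternatives. Single genes were compared by exact permutation over all assignments of mice to groups, and correlations by 100000 permutations (scipy 1.17.1), or by enumeration where fewer than 10 mice were used. No p-value was computed for means over several clock genes. Libraries of 1 group differed by more than counting noise (chi-square per gene from 14.7 to 149 over 20 pairs). The members and lists were chosen with earlier results of these data known. Named genes were the 10 members, the genes of the lists, the 10 most alike and 5 most opposite genes, and genes overlapping a member.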

Additional observations from a re-analysis of the deposited data

Results flagged for a closer look

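*Arntl* stood at 36.3 CPM in DSS-5, against 13.3 to 16.8 CPM in the other 4 DSS mice, a gap of 0.845 of the range of its group (critical value 0.71 for 5 mice). It was the 1 flag among 28 comparisons of the 13 clock genes and the output minus positive arm value in each group, where chance flags about 1 in 20, or 1.4 here.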

How the results depend on the processing

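No alternative brought an adjusted p-value of any of the 10 clock output genes under 0.05. DESeq2 called 28 genes of the whole table at an adjusted p-value under 0.05, where edgeR called 0 (1146 at an unadjusted p-value under 0.05), and leaving out single mice gave 0 to 3. The number of the 10 whose unadjusted p-value was under 0.05, 1 with all mice, ranged from 0 to 2 when single mice were left out. Without DSS-5 and ceAF-1 together, added after seeing the data, edgeR called 1 gene and r of *Dbp* with *Arntl* was −0.24 (exact permutation p = 0.588). That r ranged from −0.76 to −0.21 over the omission of single mice, with exact permutation p-values from 0.0224 to 0.606, and its sign did not change. The cause was not tested. The median log2 fold change of the clock output genes ranged from −0.00 to 0.27 over 16 alternatives and the median SD from 0.27 to 0.40 over 14. The difference in output minus positive arm values ranged from −0.41 to 0.43 over 16. With the replicate number as a block, 0 genes were called and the log2 fold change of *Per2* was 0.53 (edgeR adjusted p = 0.972), which changed no call. The mean of the paired differences in output minus positive arm values was 0.24. That mean equals the difference of the group means by construction, so it is no separate check, although it is among the 16. The labels do not say whether the numbers pair the mice. Deviations of mice with the same number had correlations of −0.25, −0.14, −0.00, −0.16 and 0.29, and 1 of 5 was closest to its own number. So few values cannot decide whether mice were paired. Among single genes the sign of the log2 fold change was kept in all 16 alternatives for *Per1*, *Per2*, *Per3* and *Nr1d2*, and turned in 1 to 6 of them for the other 6 genes, none of which passed the test. Upper quartile scaling moved the median log2 fold change of all genes by 0.01.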
